A study of Mus musculus with 35 samples.

Results

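Livers of old and young mice that had no operation were compared on 6 of the 35 arrays of a study of liver regeneration. All 35 samples came from male mice of the CB6F1 hybrid strain. The 3 old untreated livers were from mice of 25 to 27 months, obtained from the National Institute on Aging, and the 3 young untreated livers from mice of 5 to 6 months, obtained from Jackson Laboratories, so age and supplier cannot be told apart. The remaining arrays, 15 old and 14 young, held livers at 24, 38 or 48 h after sham surgery (6 old, 5 young) or partial hepatectomy (PH, removal of part of the liver, 9 old, 9 young). Arrays were chosen by their labels alone, and the measurements were all 34958 probe sets that the platform table pairs with 1 gene symbol. They stand for 18194 genes, and a gene with several probe sets was read from the brightest one on average. The labels do not say that the replicates of a group are separate animals, so p-values measure only the spread between these samples.

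The liver is built mainly of hepatocytes, which secrete most plasma proteins and metabolise nutrients, drugs and bile acids. Its resident macrophages are the Kupffer cells, which line the sinusoids and clear particles, bacteria and damaged red cells from the blood. When cytokines such as interleukin 6 reach hepatocytes they make acute phase proteins, among them the serum amyloid A proteins and orosomucoids, through transcription factors of the STAT3, C/EBP and NF-κB families.

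Levels are log2 signals, so a difference of 1 is a doubling, and each difference is the old mean minus the young mean ± the standard error (SE) of the limma fit. "Rose" and "fell" mark genes with an adjusted p under 0.05 over the 18194 genes. The defining hepatocyte gene Alb, albumin, was at 14.89, 14.91 and 14.88 in the old livers and at 14.92, 14.89 and 14.92 in the young livers. Of 17 measured hepatocyte markers 0 passed in limma. At an unadjusted p under 0.05, 0 were higher and 4 lower, against 4.36% and 6.12% of all genes. In mean 15 of the 17 were lower in old livers, against 56.7% of all genes. Their median difference was -0.09 (-0.13 to -0.07 with 1 array left out), against -0.02 over all genes. The Y-linked gene Eif2s3y was at 9.93, 9.59 and 9.52 in old livers and at 9.57, 9.40 and 9.45 in young livers. Across genes, Pearson's r between any pair of the 6 arrays was 0.9842 to 0.9958.

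One array stood apart. In old replicate 2, 178 genes were more than 1 log2 unit above every one of the other 5 arrays, against 1 to 16 genes in each of the others. Its median correlation with the others was 0.9863, against 0.9913 to 0.9931 for the rest. The genes highest in it above the next array were Slfn4, Marco, Cybb, Ms4a6d and Fgl2, most of them known from macrophages and monocytes. Gene lists that rest on this array are given with and without it, and the genes whose call was lost without it are named with the count.

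Between untreated old and young livers 43 genes passed the test, 0.236% of those tested. Of these, 32 rose (0.176%) and 11 fell (0.0605%). For 42 of the 43 all 3 old arrays lay on one side of all 3 young arrays, which was also true of 16.4% of all genes (6.91% with the old arrays above and 9.46% below). The 43 were called from these same arrays, so their separation is not separate evidence. The differences were unequal in size and direction: 14 of the rises were larger than 1 on the log2 scale, and 2 of the falls. The median difference over all genes was -0.02, 43.3% of all genes had a higher mean in old livers and 56.7% a lower one, and 793 genes were higher (4.36%) and 1114 lower (6.12%) at an unadjusted p under 0.05. Without old replicate 2, 22 genes passed, 21 of them among the 43, and all 43 kept their direction. The calls lost without that array were those of Saa2, Ifi27, Smoc2, Adgrg2, Naip2, Zfp991, Prex1, Galns, Fkbp7, Grk3, Pros1, Tmcc1, B3gnt9, Tcf4 and Orm1 among the rises, and of Ces2b, Ces4a, Zc2hc1c, Usp49, Klhdc4, Ube2g2 and Orc1 among the falls. Of the 43 genes, 7 had a mean level under 6 over all arrays (Zfp979, Dmrta1, Cdh19, Gem, Adgrg2, Zfp820 and B3gnt9), and the files used here do not show whether such dim probe sets were above background. Under each of the 6 ways of leaving out 1 untreated array 16 of the 43 passed: the rises of Lcn2, Zfp979, Dmrta1, Cdh19, Lrtm1, Wfdc2, Bzw2, Nebl, Fgl1, Gm7969, Gem, Tmem26 and Rexo4, and the falls of Cd163, Wdfy1 and Map3k5. The spread behind each test is pooled over all 35 arrays, and in a fit to the 6 untreated arrays alone 14 of the 43 passed. Of the 43 genes 25 had other, dimmer probe sets, 40 in all. Of these 40, 34 had the same direction, 17 of them with an unadjusted p under 0.05.

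**Figure D1:**
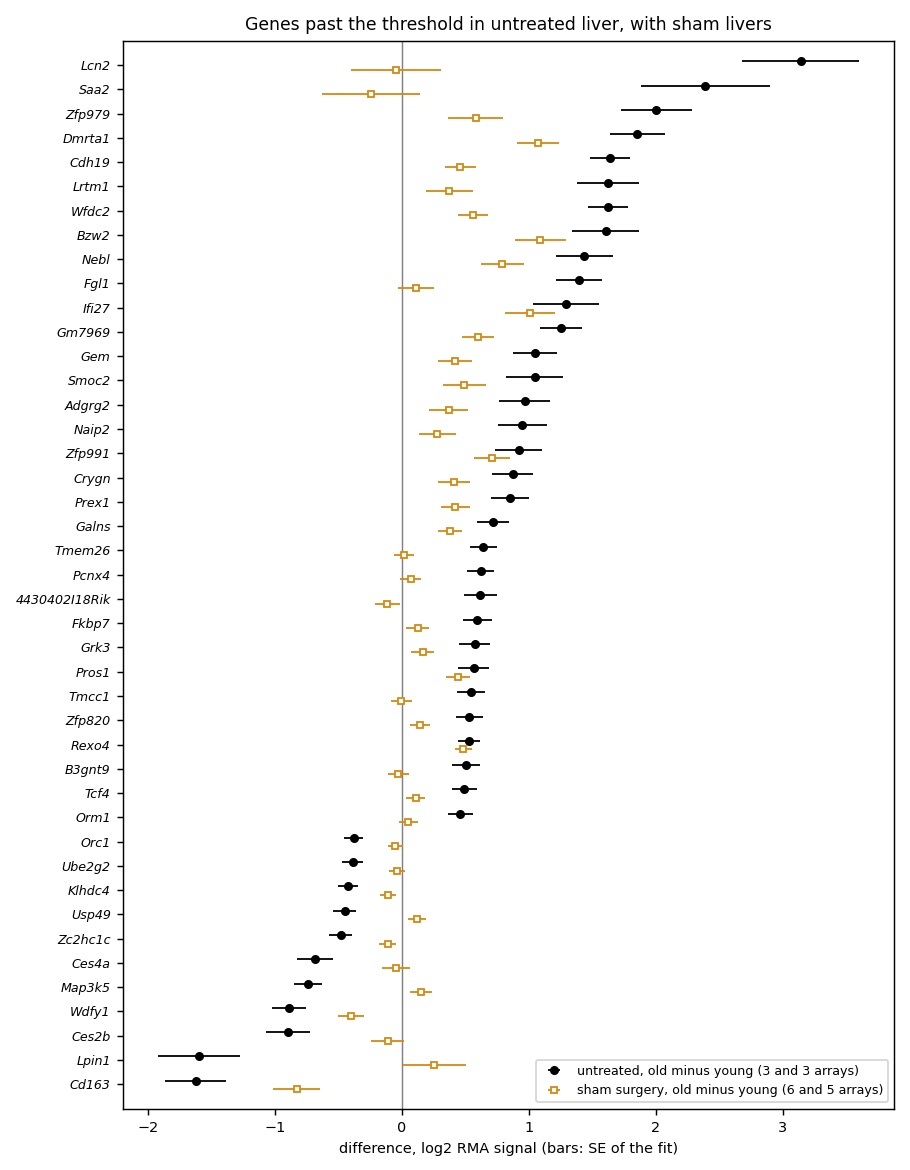
Differences between old and young livers (x axis, log2 RMA signal, bars the SE of the fit) for the 43 genes past the threshold in untreated liver, as filled black circles, with the same genes in sham livers as open orange squares. Lcn2 has the largest rise at 3.14 in untreated liver and lies at -0.04 in sham liver. The genes were chosen for their untreated differences.

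The largest rises were those of Lcn2 and Saa2, both on the acute phase list. Lcn2 encodes lipocalin 2, a secreted protein that binds iron-carrying siderophores of bacteria, and it had the largest difference among the genes that passed. Its level was 10.78, 12.78 and 13.77 in the old livers, against 9.21, 10.38 and 8.31 in the young livers. Every old array was above every young array, although the lowest old array (replicate 1) was close to the highest young one (replicate 2). The difference was 3.14 ± 0.46, or 8.82-fold (limma adjusted p = 0.00105).

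Saa2, an apolipoprotein that replaces others on high density lipoprotein during inflammation, followed. It was at 11.07, 12.95 and 14.25 in old livers and at 9.96, 11.61 and 9.52 in young livers. The groups overlapped, since young replicate 2 was above old replicate 1. Saa2 rose by 2.39 ± 0.51 (limma adjusted p = 0.0385) and did not pass without any one of old replicates 2 and 3 and young replicates 1 and 3.

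Fgl1, a fibrinogen-like protein that hepatocytes secrete, was steadier within each age. Its level was 13.23, 13.41 and 13.92 in old livers, against 12.39, 12.06 and 11.92 in young livers. The lowest old array was well above the highest young one, and Fgl1 rose by 1.39 ± 0.18 (2.63-fold, limma adjusted p = 0.000336). Orm1, an orosomucoid that binds drugs and hormones in plasma, rose by a smaller 0.46 ± 0.10 (limma adjusted p = 0.0488). It was at 13.43, 13.63 and 13.96 in old livers and at 13.10, 13.34 and 13.19 in young livers, near the top of the scale at both ages. The call of Orm1 was lost without any one of old replicates 2 and 3 and young replicates 1 and 3.

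Promoter windows were sought for the 4 acute phase genes that rose, Lcn2, Saa2, Fgl1 and Orm1. The promoters available here held none for Fgl1 and Orm1, so only the windows of Lcn2 and Saa2 are shown. Each is the RefSeq sequence of assembly GRCm38.p6 from 250 bases before to 50 after the start, in the direction of transcription, and the capitals mark the match to the C/EBP motif TTGCNNAA.
Lcn2 promoter, chr2:32387690-32387989, minus strand: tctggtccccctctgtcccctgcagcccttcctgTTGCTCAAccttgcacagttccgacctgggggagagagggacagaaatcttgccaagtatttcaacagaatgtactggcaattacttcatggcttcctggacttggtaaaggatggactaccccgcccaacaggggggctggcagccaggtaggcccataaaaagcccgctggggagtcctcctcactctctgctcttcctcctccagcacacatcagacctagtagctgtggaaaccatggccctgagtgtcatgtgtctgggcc
Saa2 promoter, chr7:46751583-46751882, plus strand: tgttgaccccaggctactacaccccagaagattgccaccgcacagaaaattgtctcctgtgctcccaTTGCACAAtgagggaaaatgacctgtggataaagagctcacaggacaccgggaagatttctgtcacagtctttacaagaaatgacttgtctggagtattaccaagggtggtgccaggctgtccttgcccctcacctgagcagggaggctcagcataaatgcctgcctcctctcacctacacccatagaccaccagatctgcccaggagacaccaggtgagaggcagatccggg
The match TTGCTCAA starts at position -216 of Lcn2 and TTGCACAA at -183 of Saa2, and both are on the strand shown. Of 32851 promoter windows of this length in the same table, 10.8% held the motif on either strand. Neither window held the NF-κB motif searched for, found in 1.47% of windows, or the STAT motif TTCNNNGAA, found in 8.3%. The motifs were chosen after the values were seen, and a match describes letters only.

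Of 26 measured members of the acute phase list 4 rose, against 0.176% of all genes, and 0 fell. In mean 19 were higher and 7 lower, and 11 were higher at an unadjusted p under 0.05, against 4.36% of all genes. The list's median difference was 0.23, against -0.02 over all genes. Several members with large differences did not pass. Orm2, another orosomucoid, was at 9.58, 11.75 and 13.17 in old livers and at 9.28, 9.47 and 8.56 in young livers (difference 2.40 ± 0.65, limma adjusted p = 0.144). Saa1, the close relative of Saa2, was at 12.02, 13.49 and 14.26 in old livers and at 11.43, 12.86 and 11.25 in young livers (1.41 ± 0.36, limma adjusted p = 0.115). In both genes old replicate 3 was highest and old replicate 1 was close to the young arrays.

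The acute phase genes varied together among the old arrays. Old replicate 3 held the highest level of 22 of the 26 members. The median member lay 0.13, 0.24 and 0.40 above the young mean in old replicates 1, 2 and 3. Haptoglobin (Hp), which captures free haemoglobin, was at 14.57, 14.62 and 14.76 in old livers and at 14.34, 14.38 and 14.35 in young livers, again with old replicate 3 highest. The iron hormone hepcidin (Hamp) was at 13.72, 14.05 and 14.23 in old livers and at 14.10, 14.12 and 13.94 in young livers, and the groups overlapped. Only Lcn2 and Fgl1 of the list passed without old replicate 2 and also without old replicate 3. Without old replicate 1, 8 members passed, in a fit where 71 of all 18194 genes rose.

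Neutrophil and monocyte markers were also highest in old replicate 3, in 9 of 10 measured members, of which 0 passed in limma, also at an unadjusted p under 0.05. S100a8, a calcium-binding protein abundant in neutrophils, was at 6.95, 8.52 and 9.66 in old livers and at 6.93, 8.13 and 6.22 in young livers. The neutrophil granule gene Ngp was at 7.35, 8.26 and 8.90 in old livers and at 7.83, 7.89 and 7.67 in young livers. Both markers overlapped between the ages. The list's median difference was 0.29, but 0.04 without old replicate 3, 0.46 without old replicate 1 and 0.18 without young replicate 1. Its array medians relative to the young mean were -0.18, 0.29 and 0.68 in old replicates 1, 2 and 3. The part of such cells in the acute phase values was not tested, and in whole liver more cells of a type cannot be told apart from more RNA per cell.

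**Figure D2:**
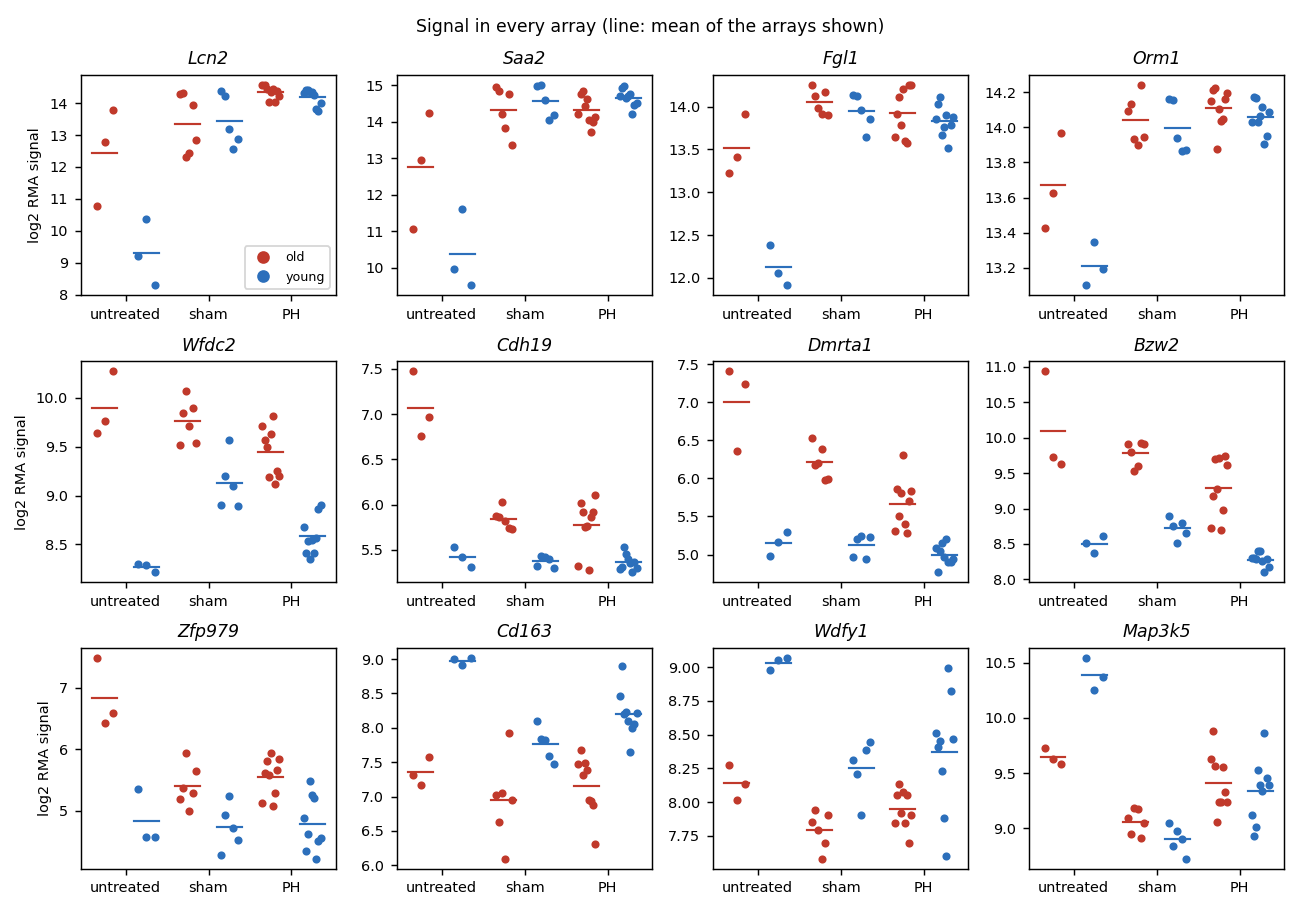
Log2 RMA signal (y axis) of 12 genes in every old (red) and young (blue) array of the untreated, sham and PH livers (x axis), with a line at the mean. Old and young arrays of Lcn2, Saa2, Fgl1 and Orm1 are intermixed in sham and PH livers, although the change of the age difference from untreated to sham liver did not pass in these 4. The old mean of Wfdc2, Dmrta1 and Bzw2 is above the young mean in all 3 conditions, and that of Cd163 is below it.

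After surgery the acute phase genes that rose with age were high in both old and young livers. In sham livers Lcn2 had a lowest, median and highest level of 12.32, 13.39 and 14.32 in old mice, against 12.56, 13.18 and 14.38 in young mice. After PH the values were 14.04, 14.37 and 14.58 in old livers and 13.76, 14.31 and 14.42 in young livers. The age difference of Lcn2 was -0.04 ± 0.35 in sham livers and 0.15 ± 0.27 after PH, and neither passed. Fgl1 had differences of 0.11 ± 0.14 and 0.09 ± 0.11, and Saa2 of -0.25 ± 0.39 and -0.35 ± 0.29. The change of the age difference from untreated to sham liver was itself tested. It was -3.19 ± 0.58 for Lcn2 and -1.28 ± 0.23 for Fgl1 (limma adjusted p = 0.052 for each) and -2.64 ± 0.64 for Saa2 (0.363), and none of the 3 passed.

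Wfdc2 and Cdh19 had the smallest adjusted p of all genes. Wfdc2, a small secreted protein with whey acidic protein domains, was at 9.64, 9.77 and 10.27 in old livers, against 8.30, 8.29 and 8.22 in young livers. The ages were far apart compared with the spread within each, and the rise was 1.62 ± 0.16 (3.08-fold, limma adjusted p = 1.93e-06). Cdh19, a cadherin that joins neighbouring cells, was at 7.47, 6.76 and 6.96 in old livers, against 5.54, 5.43 and 5.31 in young livers (rise of 1.64 ± 0.16, limma adjusted p = 1.93e-06). In neither gene did the lowest old array come near the highest young one. In sham livers Cdh19 was at 5.73, 5.84 and 6.02 in old mice (lowest, median, highest), against 5.30, 5.40 and 5.44 in young mice, a difference of 0.46 ± 0.12 that did not pass. Its age difference was 1.18 smaller in sham than in untreated liver (-1.18 ± 0.20, limma adjusted p = 0.0334). This call was not stable: it was lost in the fit to untreated and sham arrays alone (limma adjusted p = 0.0832), with the replicate block (0.0602) and in 11 of 16 fits that left out 1 array (range over all gene-level settings 0.000572 to 0.158). Only 2 genes passed that test (0.011%), Cdh19 with a lower difference in sham liver (0.0055%) and Map3k5 with a higher one (0.0055%).

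Bzw2, related to a translation initiation factor, rose by 1.60 ± 0.26 (limma adjusted p = 0.00326). Its level was 10.93, 9.73 and 9.63 in old livers and 8.51, 8.37 and 8.61 in young livers, with old replicate 1 more than 1 log2 unit above the rest. The other Bzw2 probe sets did not follow: their differences were -0.10 and -0.08. Dmrta1, a transcription factor with a DM domain, was at 7.40, 6.36 and 7.24 in old livers, against 4.98, 5.17 and 5.30 in young livers, and rose by 1.85 ± 0.22 (limma adjusted p = 5.34e-05). The young level is dim, so no fold is given. Rexo4, an exonuclease-like nucleolar protein, rose by only 0.53 ± 0.09, from arrays at 9.44, 9.31 and 9.28 in old livers and 8.97, 8.64 and 8.83 in young livers (limma adjusted p = 0.00256). Its other probe set had a difference of 0.62.

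Bzw2, Dmrta1 and Rexo4 also rose in sham livers, where 9 genes passed (0.0495%), 7 of them higher (0.0385%) and 2 lower (0.011%) in old livers. Bzw2 was at 9.52, 9.86 and 9.93 (lowest, median and highest) in old sham livers, against 8.51, 8.76 and 8.90 in young ones, a rise of 1.09 ± 0.20 (limma adjusted p = 0.0353). Dmrta1 was at 5.98, 6.19 and 6.53 in old sham livers and at 4.94, 5.21 and 5.25 in young ones (1.07 ± 0.17, limma adjusted p = 0.00478). Rexo4 rose by 0.48 ± 0.06 there (limma adjusted p = 0.000895). In none of the 3 genes did old and young sham arrays overlap. After PH, where 1182 genes passed (6.5%, with 2.9% higher and 3.59% lower in old livers), each of the 3 rose again, Bzw2 by 1.01 ± 0.15, Dmrta1 by 0.67 ± 0.13 and Rexo4 by 0.28 ± 0.05.

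The untreated, sham and PH comparisons share no arrays, though they share the estimate of the spread. Of the 43 genes, 35 had the same direction in sham livers (27 of 32 rises and 8 of 11 falls), against 58.0% of all genes. For 19 of them the sham difference had an unadjusted p under 0.05, against 1506 of all 18194 genes in either direction. In all 43 the sham difference was smaller in size than the untreated one, for which the genes were chosen. After PH 36 of the 43 had the same direction, against 52.7% of all genes. Of the 43, 19 passed after PH in the same direction, against 6.5% of all genes in either direction. Tmcc1, which rose in untreated liver, went the other way and fell after PH (-0.24 ± 0.06, limma adjusted p = 0.025). Age and supplier run together in all of these comparisons.

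The next rises by size were in genes of different kinds. Zfp979, a zinc finger protein, was at 7.48, 6.43 and 6.59 in old livers, against 5.35, 4.57 and 4.57 in young livers, and rose by 2.00 ± 0.28 (limma adjusted p = 0.000657), from a dim young level. Zfp991, another zinc finger gene with 3 annotated genes between it and Zfp979 on chromosome 4, was at 9.01, 8.90 and 8.52 in old livers and at 8.14, 7.66 and 7.87 in young livers. It rose by 0.92 ± 0.19 (limma adjusted p = 0.0264), but of its other probe sets one gave 1.12 and one -0.14. The call of Zfp991 was lost without any one of old replicates 1 and 2 and young replicates 2 and 3. Genes of this family are near-identical in parts, so their probe sets may read more than 1 of them.

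Nebl, which encodes the actin-binding protein nebulette, was at 8.32, 8.12 and 8.23 in old livers, against 6.73, 6.78 and 6.84 in young livers. The 2 ages were tight and far apart (rise of 1.44 ± 0.22, limma adjusted p = 0.0015), although a dimmer probe set of Nebl gave -0.02. Gm7969, a predicted gene, was at 10.39, 9.87 and 10.08 in old livers and at 9.04, 8.77 and 8.77 in young livers (1.25 ± 0.17, limma adjusted p = 0.000336). Of its dimmer probe sets one gave 1.18 and one 0.11. Ifi27, an interferon-inducible membrane protein, averaged 12.14 ± 0.14 in old livers, against 10.85 ± 0.26 in young livers (SD, n = 3 each), with no overlap. It rose by 1.29 ± 0.26 (limma adjusted p = 0.0264). Its second probe set gave 1.14. Of the 6 fits that left out an untreated array, Ifi27 passed only in the one without old replicate 3. Nebl, Gm7969 and Ifi27 rose again after PH, by 1.01 ± 0.13, 0.88 ± 0.10 and 0.83 ± 0.15, and their sham differences of 0.79, 0.60 and 1.01 did not pass.

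Lrtm1, Gem and Tmem26 rose in untreated livers, and their differences after sham surgery and PH did not pass. The change of the age difference from untreated to sham liver did not pass either (limma adjusted p = 0.363, 0.65 and 0.172). Lrtm1, a membrane protein with leucine-rich repeats, was at 9.05, 9.04 and 8.87 in old livers, against 7.65, 7.26 and 7.17 in young livers (rise of 1.62 ± 0.24, limma adjusted p = 0.00105). A dimmer probe set of Lrtm1 gave 0.29. The Lrtm1 difference was 0.37 ± 0.18 in sham livers and 0.18 ± 0.14 after PH. Gem, a small GTPase that restrains calcium channels, was at 6.59, 6.20 and 6.53 in old livers and at 5.26, 5.21 and 5.70 in young livers (1.05 ± 0.17, limma adjusted p = 0.00326). The age differences of Gem in sham livers (0.42 ± 0.13) and after PH (0.24 ± 0.10) did not pass. Tmem26, a transmembrane protein, rose by 0.64 ± 0.10 and had differences of 0.02 and 0.04 after sham surgery and PH. Its dimmer probe set gave 0.16 in untreated livers.

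Naip2, Prex1, Adgrg2 and Grk3 were among the smaller rises. Naip2, an inflammasome sensor of bacterial secretion systems, was at 7.21, 7.64 and 7.25 in old livers, against 6.89, 6.13 and 6.24 in young livers (rise of 0.95 ± 0.19, limma adjusted p = 0.0264). Prex1, an activator of the GTPase Rac in leukocytes, was at 9.16, 9.53 and 8.70 in old livers and at 8.39, 8.18 and 8.27 in young livers (0.85 ± 0.15, limma adjusted p = 0.00721). Adgrg2, an adhesion G protein-coupled receptor, rose by 0.97 ± 0.20, and Grk3, a kinase of activated receptors, by 0.57 ± 0.12. Dimmer probe sets gave 0.12 for Adgrg2 and 0.09 and 0.22 for Grk3. In Naip2, Prex1, Adgrg2 and Grk3 old replicate 2 was the highest array, and 0 of these 4 passed without it. Leaving out young replicate 2 also ended the call of each, leaving out young replicate 3 those of Naip2, Adgrg2 and Grk3, and leaving out young replicate 1 those of Adgrg2 and Grk3. Adgrg2 lost it without old replicate 3 too.

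The other rises were modest. Smoc2, a calcium-binding matrix protein, was at 8.06, 8.36 and 8.06 in old livers, against 7.31, 7.03 and 7.01 in young livers (1.05 ± 0.22, limma adjusted p = 0.0435). Pros1, the anticoagulant protein S, was at 10.38, 10.34 and 10.25 in old livers and at 9.83, 9.59 and 9.86 in young livers (0.57 ± 0.12, limma adjusted p = 0.0496). Both lost the call whichever untreated array was left out. Galns, a lysosomal sulfatase, was at 9.09, 9.25 and 9.18 in old livers, against 8.47, 8.32 and 8.57 in young livers (0.72 ± 0.13, limma adjusted p = 0.00721), and its dimmer probe set gave -0.05. Fkbp7, a protein-folding isomerase of the endoplasmic reticulum, rose by 0.59 ± 0.11, and the glycosyltransferase B3gnt9 by 0.50 ± 0.11. A dimmer probe set of Fkbp7 gave -0.03. Tcf4, a basic helix-loop-helix transcription factor, rose by 0.49 ± 0.10, and its other 5 probe sets gave 0.11 to 0.77. Without old replicate 2 the calls of Galns, Fkbp7, B3gnt9 and Tcf4 were lost. Galns was lost also without young replicate 2, Fkbp7 without old replicate 3 and young replicates 1 and 3, B3gnt9 without old replicate 3 and any young replicate, and Tcf4 without old replicate 1 and any young replicate. The remaining rises were Crygn (0.87), Pcnx4 (0.62), 4430402I18Rik (0.62), Tmcc1 (0.55) and Zfp820 (0.53), which passed in 3, 5, 1, 2 and 2 of the 6 fits that left out an untreated array.

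Of the 11 falls Cd163 was the largest. It encodes the receptor by which macrophages take up complexes of haptoglobin and haemoglobin. Its level was 7.32, 7.17 and 7.57 in old livers, against 9.01, 8.91 and 9.01 in young livers. The young arrays lay close together and far above the old ones, and Cd163 fell by 1.62 ± 0.24 on the log2 scale, to 0.324 of the young level (limma adjusted p = 0.00105). It was also lower after surgery, at 6.10, 6.98 and 7.93 in old sham livers (lowest, median, highest), against 7.47, 7.82 and 8.11 in young ones. The sham difference of -0.83 ± 0.18 did not pass (limma adjusted p = 0.0982), and after PH Cd163 fell by 1.04 ± 0.14 (limma adjusted p = 0.000145).

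Lpin1, a phosphatidate phosphatase that also acts as a coactivator of fatty acid oxidation genes, was at 10.40, 11.48 and 10.90 in old livers, against 12.76, 12.49 and 12.32 in young livers. It fell by 1.59 ± 0.32 (limma adjusted p = 0.0264), and a second probe set gave -1.55. Its level was far lower after sham surgery at both ages, with medians of 8.74 in old and 8.44 in young livers, and the sham difference of 0.26 ± 0.25 did not pass. Of the 6 fits that left out an untreated array, Lpin1 passed only in the one without old replicate 2.

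Map3k5, a stress-activated kinase upstream of JNK and p38 that is also called ASK1, was at 9.72, 9.63 and 9.58 in old livers, against 10.54, 10.25 and 10.37 in young livers. It fell by 0.74 ± 0.11 (limma adjusted p = 0.0015), with -0.72 from a second probe set. After sham surgery it was at 8.91, 9.07 and 9.18 in old livers (lowest, median, highest), against 8.73, 8.91 and 9.05 in young livers. The sham difference was 0.15 ± 0.09, and the old minus young difference was 0.89 higher in sham than in untreated liver (limma adjusted p = 0.0334). This call was lost in the fit to untreated and sham arrays alone (limma adjusted p = 0.0579) and in 8 of 16 fits that left out 1 array (range over all gene-level settings 0.00355 to 0.145). Wdfy1, an endosomal protein of Toll-like receptor signalling, was at 8.27, 8.02 and 8.13 in old livers and at 8.98, 9.05 and 9.06 in young livers (fell by 0.89 ± 0.13, limma adjusted p = 0.00105). Its dimmer probe sets gave -0.81, -0.61, -0.16 and -0.03.

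A pair of carboxylesterase genes on chromosome 8 with 7 annotated genes between them fell. Ces2b, of a family that hydrolyses esters of drugs and lipids, was at 6.92, 6.86 and 6.97 in old livers, against 7.50, 8.08 and 7.86 in young livers (fell by 0.90 ± 0.17, limma adjusted p = 0.0171). Ces4a, counted here among genes higher in male than female liver, was at 7.81, 7.67 and 8.28 in old livers and at 8.41, 8.70 and 8.69 in young livers (fell by 0.68 ± 0.14, limma adjusted p = 0.0371). Neither differed past the threshold in sham livers (-0.11 and -0.05) or after PH (-0.13 and 0.10). Both lost the call without old replicate 2, young replicate 2 or young replicate 3, and Ces4a also without old replicate 1. Carboxylesterase genes resemble each other, so a probe set may read more than 1 of them.

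The other falls were under 0.50. Orc1, a subunit of the origin recognition complex, was at 8.42, 8.47 and 8.57 in old livers and at 8.92, 8.94 and 8.75 in young livers (fell by 0.38 ± 0.08, limma adjusted p = 0.0264), while a dimmer probe set gave -0.07. Ube2g2, an enzyme of protein degradation at the endoplasmic reticulum, fell by 0.39 ± 0.08, and the deubiquitinase Usp49 by 0.45 ± 0.09. Dimmer probe sets gave -0.34 for Ube2g2 and -0.04 for Usp49. Klhdc4 fell by 0.42 ± 0.08 and again after PH, by 0.29 ± 0.05 (limma adjusted p = 0.000783). Zc2hc1c fell by 0.48 ± 0.09. Without old replicate 2 none of these 5 passed in untreated liver, and each lost the call without at least 2 other arrays as well. Apart from Klhdc4, none of these 5 genes passed in sham livers or after PH.

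Macrophage genes were higher in old livers by their mean, and most of that came with 1 array. Of 17 measured Kupffer cell and macrophage markers 16 had a higher mean in old livers and the median difference was 0.89, but 0 passed in limma (9 higher at an unadjusted p under 0.05). Relative to the young mean the median member was at 0.03 in old replicate 1, 1.97 in old replicate 2 and 0.52 in old replicate 3. The young arrays were between -0.10 and 0.14. Without old replicate 2 the list's median difference was 0.23, and again 0 passed. In sham livers, on other arrays, it was 0.48, and after PH 0.06.

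Csf1r, the receptor for macrophage colony-stimulating factor, was at 11.27, 13.05 and 11.83 in old livers and at 11.28, 11.22 and 11.44 in young livers (0.74 ± 0.27, limma adjusted p = 0.335). Cd5l, a secreted protein of tissue macrophages, was at 10.74, 12.62 and 11.44 in old livers and at 10.78, 10.74 and 10.60 in young livers (0.89 ± 0.62, limma adjusted p = 0.679). Old replicate 1 lay among the young arrays in both genes. Cd163, which is not in that list, was low in all 3 old arrays, including the array in which 16 of the 17 macrophage markers were highest. Without old replicate 1, 5 of the 17 markers passed (Csf1r, C1qa, C1qb, Mpeg1 and Ctss), in a fit where 71 of all 18194 genes rose.

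Most genes of the interferon-induced list followed the same array. Of 32 measured members 29 had a higher mean in old livers and 0 passed in limma (7 higher at an unadjusted p under 0.05). The median difference was 0.47, or 0.05 without old replicate 2 and 0.78 without old replicate 3. The median member was at 0.10, 1.25 and -0.02 relative to the young mean in old replicates 1, 2 and 3. Ifi27, described above, is not in that list and rose by 1.29 ± 0.26 (limma adjusted p = 0.0264), with all 3 old arrays above all young ones. It passed in 1 of the 6 fits that left out an untreated array. Within the list Xaf1, an inhibitor of an apoptosis inhibitor, came nearest to passing. Xaf1 was at 9.41, 10.38 and 9.86 in old livers and at 9.12, 8.75 and 8.73 in young livers (1.02 ± 0.24, limma adjusted p = 0.0779). Ifi47, an interferon-inducible GTPase, was at 10.87, 11.55 and 10.68 in old livers and at 10.49, 10.23 and 10.57 in young livers (0.61 ± 0.39, limma adjusted p = 0.633).

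**Figure D3:**
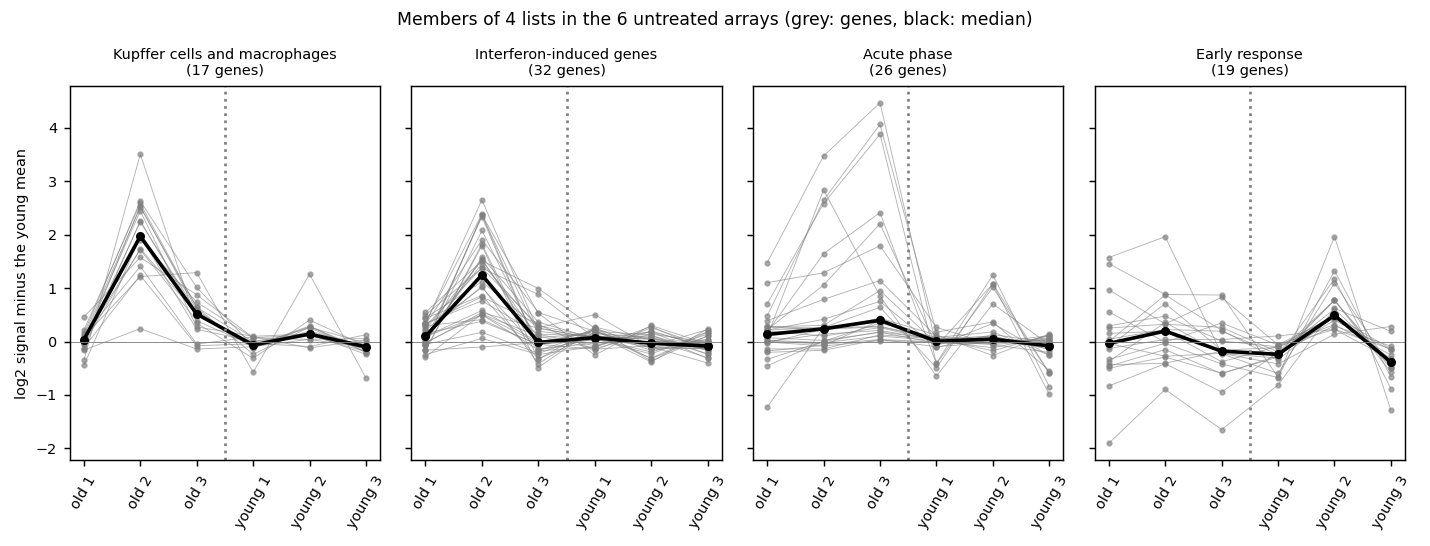
Log2 signal minus the young mean (y axis) in the 3 old and 3 young untreated arrays (x axis), with a grey line for each gene of 4 lists and a black line for the median. The macrophage and interferon medians peak in old replicate 2 at 1.97 and 1.25, acute phase genes are highest in old replicate 3, and early response genes peak in young replicate 2.

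Antigen presentation genes were also mostly highest in old replicate 2. For 11 measured genes of MHC class II, which presents peptides to helper T cells, the median difference was 0.25, or 0.08 without old replicate 2. H2-Aa, a class II chain, was at 10.44, 12.90 and 10.59 in old livers and at 10.22, 10.53 and 9.99 in young livers. For 18 genes of MHC class I and peptide processing the median was 0.24, or 0.13 without old replicate 2. B2m, the light chain of class I, was at 14.37, 14.43 and 14.41 in old livers and at 14.35, 14.34 and 14.31 in young livers. The chemokine list had a median of 0.28, or 0.01 without that array and 0.44 without old replicate 1, and 0 members of these 3 lists passed in limma. At an unadjusted p under 0.05, 6 class II genes were higher and 1 lower, 3 class I genes were higher and 4 chemokines were higher.

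**Figure D4:**
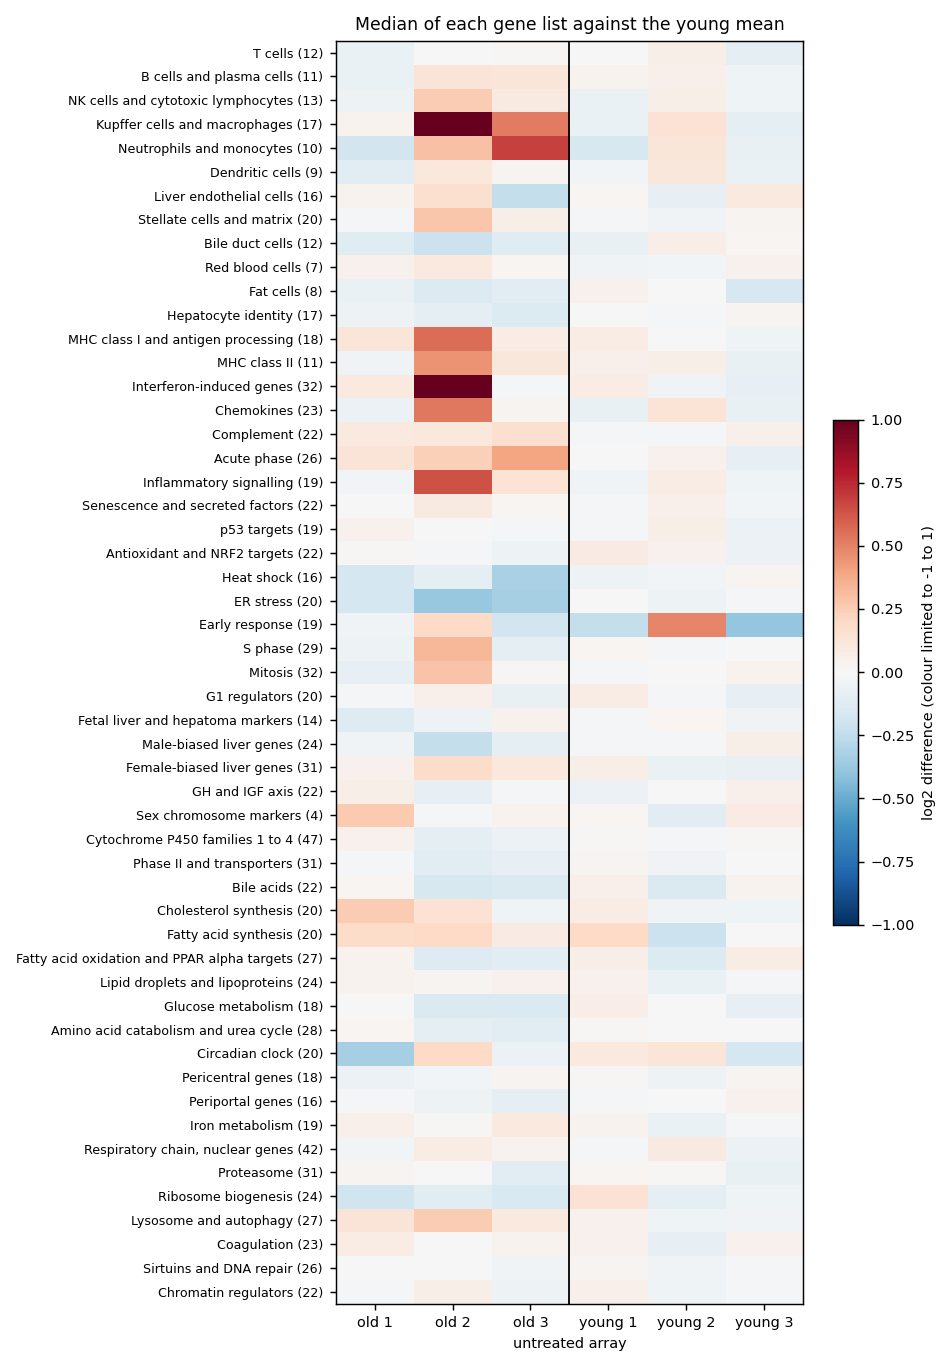
Median log2 difference from the young mean (colour, limited to -1 to 1) for 53 gene lists (rows, with the number of genes measured) in the 6 untreated arrays (columns). The macrophage and interferon lists stand out in old replicate 2, and the neutrophil list in old replicate 3.

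Some immunoglobulin genes were higher in all 3 old arrays. Ighm, the heavy chain of IgM, was at 11.19, 11.95 and 11.32 in untreated old livers, against 9.93, 9.15 and 9.15 in untreated young livers. The arrays did not overlap, and the difference of 2.08 ± 0.57 did not pass (limma adjusted p = 0.149). In sham livers Ighm was at 10.92, 11.23 and 13.70 in old mice (lowest, median, highest), against 8.85, 9.11 and 11.05 in young mice, and rose by 2.35 ± 0.44 (limma adjusted p = 0.0353). Igkv8-30, a kappa light chain variable segment, was at 9.02, 9.96 and 9.53 in untreated old livers and at 7.51, 7.41 and 6.96 in untreated young livers (2.21 ± 0.49, limma adjusted p = 0.0587). It rose by 2.30 ± 0.38 in sham livers (limma adjusted p = 0.00786) and by 1.62 ± 0.29 after PH.

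Of 19 measured immunoglobulin genes 16 had a higher mean in untreated old livers, against 43.3% of all genes, and 8 had all old arrays above all young ones, against 6.91%. Of the 19, 0 passed in untreated liver in limma. Ighm and Igkv8-30 alone had an unadjusted p under 0.05. Jchain, which joins IgM and IgA into polymers, was at 8.67, 9.87 and 9.20 in old livers and at 7.76, 7.19 and 6.85 in young livers (1.98 ± 0.58, limma adjusted p = 0.193). The B cell surface genes Ms4a1 (CD20) and Cd79a had differences of -0.08 and -0.11. Of the 11 B cell and plasma cell markers, which include Ighm and Jchain, 0 passed (2 higher at an unadjusted p under 0.05). In mean 7 of the 11 were higher and 4 lower in old livers, with a median difference of 0.05. All old arrays lay above all young ones in 5 of them (6.91% of all genes) and below in 1 (9.46%). Immunoglobulin probe sets can read several related segments.

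Nocturnin (Noct), an enzyme with a daily rhythm in liver, was close to the threshold in untreated liver and past it in the other conditions. It was at 12.48, 12.30 and 12.21 in untreated old livers, against 11.05, 11.16 and 10.59 in untreated young livers (1.40 ± 0.31, limma adjusted p = 0.0584). In sham livers it rose by 1.93 ± 0.24 (limma adjusted p = 0.000392), with 11.50, 11.74 and 11.89 in old livers (lowest, median, highest) and 9.29, 9.84 and 10.54 in young ones. After PH it rose by 1.15 ± 0.18. Dbp, a clock output gene, was at 8.09, 11.20 and 9.78 in old livers and at 11.49, 10.87 and 9.93 in young livers, and the difference of Per2 was 0.19 ± 0.15. Of 20 clock genes 0 passed in limma in untreated liver (1 higher at an unadjusted p under 0.05), and no label used here gives the time of day of collection.

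**Figure D5:**
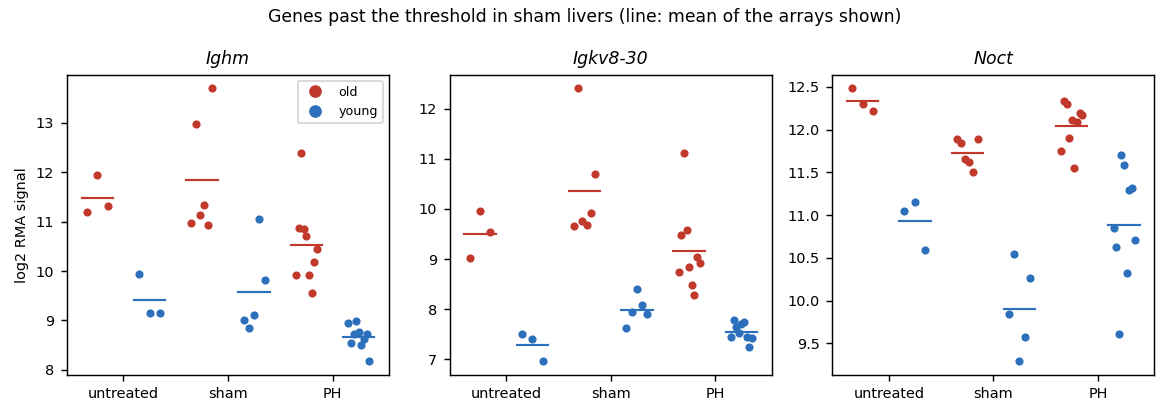
Log2 RMA signal (y axis) of Ighm, Igkv8-30 and Noct in old (red) and young (blue) arrays of the untreated, sham and PH livers (x axis), with a line at the mean. The old mean is above the young mean in all 3 conditions, and in untreated livers the lowest old array is above the highest young one in each gene. These genes were picked from those past the threshold in sham livers, with their values seen.

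No list of metabolic liver functions had a member past the threshold apart from the genes above. Of 47 measured cytochrome P450 genes of families 1 to 4, 0 passed in limma (3 higher and 2 lower at an unadjusted p under 0.05), with a median difference of -0.05, which was -0.02 without old replicate 2 and -0.08 without old replicate 1. Cyp3a11, a major drug-metabolising enzyme, was at 14.17, 14.15 and 14.09 in old livers and at 14.28, 14.31 and 14.29 in young livers (-0.16 ± 0.09). The phase II and transporter list (31 measured), bile acid list (22), fatty acid oxidation list (27), urea cycle and amino acid list (28), and respiratory chain list (42) each had 0 passing members, medians between -0.09 and 0.02 (-0.14 to 0.07 with any 1 array left out), and at most 1 member higher and 1 lower at an unadjusted p under 0.05. Cholesterol synthesis genes were higher in mean in 18 of 20 members, with a median of 0.10 and 0 passing (0 also at an unadjusted p under 0.05), and 15 of the 20 were highest in old replicate 1. That median was 0.06 without old replicate 1, 0.20 without old replicate 3 and 0.19 without young replicate 1. Cyp7a1, the rate-limiting enzyme of bile acid synthesis, was at 9.85, 11.63 and 11.05 in old livers and at 11.07, 10.15 and 10.28 in young livers, and the ages overlapped.

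Growth hormone sets the levels of many sex-biased liver genes, and it acts in part through IGF1. Of 22 genes of the growth hormone and IGF axis 0 passed in limma (1 lower at an unadjusted p under 0.05). Igf1 was at 13.40, 13.32 and 13.43 in old livers and at 13.35, 13.48 and 13.37 in young livers. Cish, an inhibitor induced by growth hormone through STAT5, was at 9.29, 9.22 and 8.94 in old livers and at 9.88, 10.26 and 10.26 in young livers (-0.99 ± 0.25, limma adjusted p = 0.115), with no overlap. Of 24 measured male-biased genes 1 fell (Ces4a), against 0.0605% of all genes, and 0 rose. In mean 17 of the 24 were lower in old livers, against 56.7% of all genes. All old arrays lay below all young ones in 7 of them (9.46% of all genes) and above in 3 (6.91%). Of 31 female-biased genes 0 passed (4 higher and 2 lower at an unadjusted p under 0.05). Cd36, a fatty acid carrier higher in female liver, was at 10.07, 10.09 and 9.77 in old livers and at 9.49, 8.10 and 8.69 in young livers (1.21 ± 0.32, limma adjusted p = 0.129). The male-typical Cyp4a12a was at 13.46, 13.21 and 13.39 in old livers and at 13.44, 13.45 and 13.56 in young livers.

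Markers linked to senescence did not pass. Of 22 measured genes of senescence and its secreted factors 0 passed in limma (1 higher and 1 lower at an unadjusted p under 0.05), and the median difference was 0.01 (-0.03 to 0.08 with 1 array left out). Cdkn2a, the p16 and p19Arf locus, was at 5.55, 5.56 and 6.03 in old livers and at 5.69, 5.97 and 5.88 in young livers. Cdkn1a, the cell cycle inhibitor p21, was lower in every old array, at 9.04, 9.12 and 9.08, against 9.87, 10.19 and 9.66 in young livers (-0.83 ± 0.41, limma adjusted p = 0.488). In the fit to untreated and sham arrays alone it passed as a fall. Lmnb1, a nuclear lamin lost in senescent cells, was at 9.89, 9.98 and 9.66 in old livers and at 9.95, 10.09 and 10.08 in young livers.

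Genes of the cell cycle, which hepatocytes leave in the resting liver, gave 1 call. Of 29 S phase genes 1 fell (Orc1), against 0.0605% of all genes, and 0 rose. Of 32 mitosis genes 0 passed (1 lower at an unadjusted p under 0.05). Ccnd1, cyclin D1, was at 8.86, 9.88 and 9.09 in old livers and at 9.71, 9.40 and 9.19 in young livers. The medians were 0.09 for S phase and 0.12 for mitosis, and -0.07 and -0.04 without old replicate 2, which held the highest level of 19 and 23 of the members. The S phase median was 0.03 without young replicate 2, and the mitosis median 0.18 without old replicate 1.

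Genes of the unfolded protein response of the endoplasmic reticulum were lower in mean in old livers in 17 of 20 members, with a median of -0.29 and 0 passing in limma (3 lower at an unadjusted p under 0.05). Relative to the young mean the median member was at -0.18, -0.38 and -0.33 in old replicates 1, 2 and 3. Hspa5, the chaperone BiP, was at 13.31, 13.14 and 13.20 in old livers and at 13.68, 13.52 and 13.64 in young livers (-0.40 ± 0.20, limma adjusted p = 0.496). Creld2, another gene of this response, was at 10.34, 10.37 and 10.60 in old livers and at 11.69, 11.61 and 11.37 in young livers (-1.12 ± 0.50, limma adjusted p = 0.422). Neither gene overlapped between the ages, and in the list 7 of 20 members had all old arrays below all young arrays, against 9.46% of all genes. In sham livers the list's median difference was -0.16, and after PH it was 0.03.

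The spread over the arrays of each age was compared over all genes. The SD over 3 arrays had a median of 0.12 in both old and young livers, and it was larger in old livers for 53.05% of genes. The 5 genes with the largest SD in old livers were Slfn4, Marco, Fgl2, Orm2 and Cybb. All but Orm2 were set by old replicate 2: Marco, a scavenger receptor of macrophages, was at 7.15, 11.01 and 7.84 in old livers and at 7.18, 7.90 and 7.41 in young livers. The 5 with the largest SD in young livers were Btg2, Ppp1r3g, Mt2, Mt1 and Igfbp1. Btg2, an immediate early antiproliferative gene, was at 9.46, 9.76 and 9.37 in old livers and at 9.12, 11.76 and 8.50 in young livers. Igfbp1, a fasting-induced binding protein of IGF, was at 12.66, 11.11 and 11.52 in old livers and at 11.93, 14.15 and 11.52 in young livers. Young replicate 2 was highest in both, and in 12 of 19 early response genes. The metallothioneins, which bind zinc and copper, varied at both ages, with Mt1 at 11.65, 12.91 and 13.70 in old livers and at 13.57, 13.88 and 11.26 in young livers.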

How the data were processed

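RNA of 35 liver samples was hybridised to 1 Affymetrix mouse array each. The authors deposited RMA values in log2 units, per the submitters' processing notes, with no version in the sources used here. RMA subtracts background, makes the arrays' signal distributions alike and merges the probes of each set. Arrays have no read depth, and their number limits the precision. Of 45101 probe sets, 64 are controls, 9211 are not listed by the platform table and 932 pair with several symbols, and these were left out. The files name no build.

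Means of 14 groups were fitted to the 35 arrays with limma 3.58.1 in R 4.3.3 (eBayes, 21 residual and 3.29 prior degrees of freedom), and old was compared with young in untreated livers, in sham and PH livers as means over times, and in sham against untreated livers. P-values were adjusted by the Benjamini-Hochberg method over 18194 genes, with a threshold of 0.05. The fit was tested on simulated data. The genes, 53 gene lists and tests were chosen with earlier results of these data known. A list is described by counts and its median, with no test of the list.

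Named genes were those past the threshold with no overlap of arrays, up to 15 in each direction by size. From a list they were up to 4 passing members, or else the 2 with the highest level. To these came a panel of ageing and liver genes and the 5 genes with the largest SD at each age. Genes past the threshold for the difference between sham and untreated livers were also named. Genes named only because they passed in sham livers were chosen after their values were seen. So were the remaining called genes, the genes highest in single arrays, and Hp, Saa1, S100a8, Ngp, Xaf1, Creld2, Cish, Jchain, Ms4a1, Cd79a and the 5 macrophage genes named without old replicate 1. The set of 19 immunoglobulin genes is not among the 53 lists. Promoter windows were taken from a RefSeq table for GRCm38.p6 and searched with Python 3.11.15. Figures used matplotlib 3.10.9.

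Samples with the same replicate number were checked for pairing. Deviations from the group means correlated at 0.158, 0.167 and -0.153 for old and young arrays of the same number, so the numbers were not taken to pair the samples. Alternatives used the mean of a gene's probe sets, every probe set, or only genes with a mean level of at least 6. Others used centred or quantile-normalized arrays, another variance prior, weights per array, fewer arrays or a replicate block. Each array was also left out in turn, except the only young sham array at 38 h. That array alone gives the young level at its time, and the sham mean weights the times equally. The alternative with the untreated and sham arrays but without old replicate 2 was added after seeing the data.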

Additional observations from a re-analysis of the deposited data

Results flagged for a closer look

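The age difference of 2 genes changed between untreated and sham livers by a test of that change itself, which is 0.011% of the genes tested. For Cdh19 the old minus young difference was 1.18 lower in sham than in untreated liver (-1.18, limma adjusted p = 0.0334), with the higher level in old livers in both conditions. For Map3k5 it was 0.89 higher in sham than in untreated liver (0.89, limma adjusted p = 0.0334), with the lower level in old livers in the untreated state alone by the test. Neither call was stable. In the fit to untreated and sham arrays alone neither passed (limma adjusted p = 0.0832 for Cdh19 and 0.0579 for Map3k5), and with the replicate block only Map3k5 did. With 1 array left out Cdh19 passed in 5 of 16 fits and Map3k5 in 8 of 16, while the differences stayed between -1.33 and -0.98 for Cdh19 and between 0.81 and 0.95 for Map3k5 over all gene-level settings. An unadjusted p under 0.05 was found for 1109 of the 18194 genes, and a share of 0.05 would be under that limit if no gene changed. Surgery and the time after it are part of the sham condition, and their parts were not tested.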

How the results depend on the processing

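All 43 genes that passed in untreated liver kept their direction under each alternative in which they were tested. Of 125 named genes that did not pass, 46 changed sign under at least 1 alternative, among them Ccnd1, Hamp and Cyp7a1. The count of 43 was 81 without old replicate 1, 22 without old replicate 2 and 25 without young replicate 3 (range 22 to 81 over the 6 untreated arrays left out in turn). It was 143 with array weights and 89 with the untreated and sham arrays alone. Other alternatives gave 31 (untreated and sham arrays without old replicate 2) to 60. With the replicate block it was 38, of which 36 were among the 43, and the replicate numbers were not taken to pair the samples. In the fit to the 6 untreated arrays 37 genes passed, 14 of them among the 43. The sham count of 9 became 16 over probe sets, 14 with quantile normalization repeated, 191 with array weights and 43 with untreated and sham arrays alone, and 4 (without old sham 48 h replicate 2) to 19 (without old sham 24 h replicate 1) with 1 array left out. The PH count of 1182 became 1835 over probe sets, 3080 with array weights and 262 with the 18 PH arrays alone, and 656 to 2425 with 1 array left out. The 2 genes whose age difference changed between sham and untreated liver became 6 with mean probe sets, 0 over probe sets, 1 without dim genes, 4 with centred arrays, 5 with quantile normalization, 10 with array weights, 0 with untreated and sham arrays alone (5 with old replicate 2 also left out), 1 with the replicate block, and 0 to 12 with 1 array left out, so this count rests on the processing. The share of genes with the larger SD in old livers, 53.05%, was 52.87% to 55.47% under 3 alternatives. The cause of these changes was not tested. With 3 arrays per age, a difference that did not pass is not shown to be absent.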

Other observations

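Among cell types outside the hepatocyte, markers of T cells, dendritic cells, sinusoidal endothelial cells, red blood cells and fat cells had medians between -0.08 and 0.04 (-0.16 to 0.11 with any 1 array left out) and 0 members past the threshold in limma, with 4 T cell, 1 red cell and 1 fat cell markers at an unadjusted p under 0.05. Markers of bile duct cells were lower in mean in old livers in 10 of 12 members, with a median of -0.19 (-0.13 without old replicate 2). Their keratin Krt8, which hepatocytes also make, was at 12.20, 11.90 and 12.08 in old livers and at 12.46, 12.51 and 11.97 in young livers, and the ages overlapped. Markers of stellate cells and matrix had a median of 0.09, but 0.01 without old replicate 2, which was highest in 9 of 20 members, and 0.16 without young replicate 3, with Col1a1, the main fibrillar collagen chain, at 7.44, 7.96 and 7.38 in old livers and at 7.09, 7.47 and 7.40 in young livers.

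Lysosomal proteases of the cathepsin family were among the higher genes that did not pass. Ctsz was at 12.76, 12.91 and 12.64 in old livers and at 12.42, 12.40 and 12.49 in young livers (0.33 ± 0.11, limma adjusted p = 0.24). Ctsh was at 12.43, 12.54 and 12.46 in old livers and at 12.26, 12.13 and 11.98 in young livers (0.35 ± 0.09, limma adjusted p = 0.112). In both genes every old array was above every young one. Ctsc had a larger difference (0.92 ± 0.23, limma adjusted p = 0.115), also with no overlap. Of 27 lysosome and autophagy genes 7 were higher and 1 lower at an unadjusted p under 0.05 (4.36% and 6.12% of all genes), and 0 passed in limma. In mean 17 were higher and 10 lower. Their median difference was 0.13, or 0.09 without old replicate 2, the highest array in 14 of the 27 (0.08 to 0.17 with any 1 array left out). Ribosome biogenesis genes were lower in mean in old livers in 19 of 24 members, with a median of -0.14 and 0 passing in limma (4 lower at an unadjusted p under 0.05). Without young replicate 1, the highest array in 14 of the 24, that median was -0.05. Polr1a, the largest subunit of RNA polymerase I, was at 8.46, 8.48 and 8.42 in old livers and at 8.99, 8.52 and 8.75 in young livers, with no overlap. Ctsz, Ctsh, Ctsc and Polr1a were chosen after their values were seen.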
